A study of Homo sapiens with 8 samples.

Results

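The baseline transcriptome described here is that of MOLM-14 cells carrying a control hairpin. MOLM-14 is an established human acute myeloid leukaemia (AML) line. The cells expressed shCTRL, a scrambled short hairpin RNA, and had been exposed to doxycycline for 72 h, a treatment that every group of the series shared. The 4 shCTRL arrays of the 8 arrays in the series were taken by their sample titles, and no groups were compared. The remaining 4 arrays, of cells with a hairpin against CD39 (shCD39), entered only 1 alternative choice of probe sets. The RNA was described as coming from clones, whose number is not given in the sources used here, and a label field spells the line MOML14. The labels call the arrays technical replicates, so each SD below measures only the spread between these 4 arrays, which may be technical.

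Each level below is the mean of 4 log2 values, made by robust multi-array averaging (RMA), for the probe set that stands for a gene. The arrays held 53617 probe sets, of which 16098 carried a gene symbol and 37519 were unnamed here. Taking the brightest probe set of each symbol gave 14884 genes, of which 11916 were protein-coding. A background level was set from 85 genes of smell and taste receptors, hair keratin-associated proteins and beta-defensins, which are made in tissues other than blood. The 95th percentile of their levels was 5.05, and genes at or below it are called near background. The 90th percentile of all 14884 genes was 7.46, and genes at or above it are called high. The rest are called middle. By that rule 1489 genes were high, which is 10% by construction, 4404 were middle (29.6%) and 8991 were near background (60.4%).

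A level on this scale depends on the amount of RNA and also on how well the probes of a gene bind, so an order of levels between genes is not an order of RNA amounts. GAPDH, a glycolytic enzyme abundant in most cells, read 6.27 ± 0.14 (SD, n = 4) and EEF1A1, the translation factor that brings tRNA to the ribosome, read 6.63 ± 0.07. Both lay in the middle band. Near background therefore does not show that a transcript was absent.

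MOLM-14 belongs to the leukaemias driven by a KMT2A::MLLT3 fusion, and it also carries an internal tandem duplication in FLT3. KMT2A fusions keep the transcription machinery on a set of early haematopoietic genes, among them MEIS1 and the HOXA cluster, that normal cells shut off as they mature. Leukaemias of this class usually resemble cells on the path from the granulocyte and monocyte progenitor to the monocyte. Along that path the proteases of the primary granules are made early, CD34, an antigen of stem and progenitor cells, is lost, and CD14, an antigen of mature monocytes, comes late.

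Of the 5 genes given as markers of these cells, FLT3, the receptor tyrosine kinase for FLT3 ligand, was high on every array. It read 9.60, 9.63, 9.77 and 9.66 on arrays 1 to 4 (SD 0.07). MEIS1, the homeobox partner of the HOX proteins, was in the middle band with 6.62, 6.46, 6.36 and 6.49. MPO, the myeloperoxidase of the primary granules, read 7.04, 7.93, 6.59 and 8.19. Arrays 2 and 4 therefore placed MPO in the high band and arrays 1 and 3 in the middle band. CSF1R, the receptor for macrophage colony-stimulating factor, read 4.24, 4.76, 4.82 and 4.53, near background on all 4 arrays. It passed to the middle band when the background was set at the 90th percentile of the reference genes, 4.06, so its band rests on that choice. CD33, an antigen of myeloid cells, had no named probe set and was not measured here. ENTPD1, which codes for CD39 and is the target of the hairpin in the cells not used here, read 3.16, 2.88, 3.21 and 4.12. It lay near background under every background level tried, and its highest value was on array 4.

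**Figure D1:**
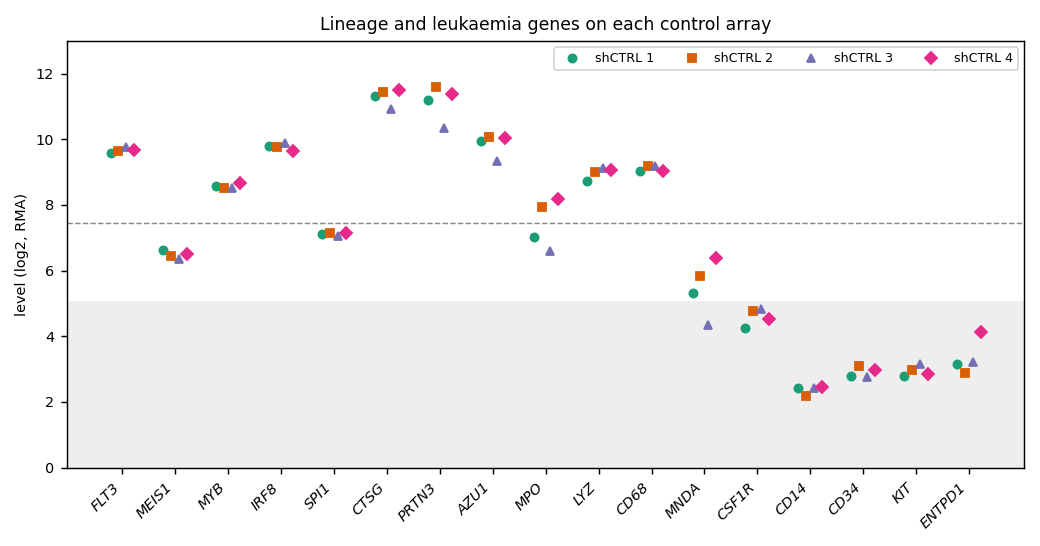
Level of 17 lineage and leukaemia genes (log2, RMA) on each of the 4 shCTRL arrays, 1 symbol per array; the grey area lies below the background level of 5.05 and the dashed line marks the high level of 7.46. FLT3, MYB, IRF8, CTSG, PRTN3, AZU1, LYZ and CD68 lie above the dashed line on every array, MPO lies on both sides of it, and CSF1R, CD14, CD34, KIT and ENTPD1 lie in the grey area.

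Among 29 measured genes of the KMT2A fusion network, 9 were high (31.0%, against 10% of all genes), 8 middle and 12 near background (41.4%, against 60.4% of all genes). MBNL1, a splicing factor, read 10.81, 10.73, 10.68 and 10.67 (SD 0.06), although its other probe set lay at 4.86. JMJD1C, a member of the histone demethylase family, read 9.31, 9.19, 9.25 and 9.38. CDK6, the G1 kinase, read 9.0, 8.86, 8.89 and 8.99. MYB, the progenitor transcription factor, read 8.58, 8.53, 8.50 and 8.66. These 4 genes were high on all 4 arrays. SENP6 (8.81 ± 0.11), a SUMO protease, IGF2BP2 (8.39 ± 0.28), an mRNA-binding protein, PSIP1 (7.86 ± 0.26), the chromatin tether of the KMT2A complex, and ZEB2 (7.51 ± 0.07), a zinc finger repressor, were also high. The cofactors MEN1 (6.86 ± 0.16), PBX3 (6.73 ± 0.14) and PBX2 (6.61 ± 0.07) were in the middle band beside MEIS1.

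Of the HOX genes, HOXA2 was the HOXA member with a named probe set, at 4.6 ± 0.17, and the other HOXA genes were not measured here. The measured HOXB genes were all near background. They ran from 1.80 ± 0.19 for HOXB6 and 1.96 ± 0.18 for HOXB5 to 4.47 ± 0.14 for HOXB9.

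A microRNA gene inside the HOXA cluster did have a probe set. MIR196B, which lies between HOXA9 and HOXA10 and is known as a KMT2A target, read 7.88, 7.69, 7.56 and 6.27 on arrays 1 to 4. Arrays 1 to 3 were in the high band and array 4 was lower, and the mean of 7.35 ± 0.73 fell in the middle band. MIR142, a microRNA gene of blood cells in general, read 8.35, 8.14, 7.46 and 7.53 and was high. These 2 genes were named for their function after their values were seen. Of 1072 microRNA genes with a probe set, 7 were high and 964 near background (89.9%). Such a probe set takes up the precursor or its host transcript, so these values are not those of the mature microRNAs printed here. The mature sequences, which show what these loci encode, are given from RefSeq (GRCh38.p14), with the seed (bases 2 to 8) in capitals. The 4 seeds differ. The miR-196b sequences lie on the minus strand at chr7:27169528-27169549 (5p) and chr7:27169493-27169514 (3p), and those of miR-142 on the minus strand at chr17:58331283-58331303 (5p) and chr17:58331245-58331267 (3p).
hsa-miR-196b-5p: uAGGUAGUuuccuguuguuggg
hsa-miR-196b-3p: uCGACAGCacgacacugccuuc
hsa-miR-142-5p: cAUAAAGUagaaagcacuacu
hsa-miR-142-3p: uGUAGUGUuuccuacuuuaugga

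Genes that are recurrently mutated in AML were high in 9 of 25 measured cases, middle in 12 and near background in 4 (16%, against 60.4% of all genes). The high members included the cohesin subunit SMC3 (10.22 ± 0.08), FLT3 itself, the splicing factor SRSF2 (8.95 ± 0.07), the ETS repressor ETV6 (8.64 ± 0.21), the cohesin subunit SMC1A (8.22 ± 0.10) and EZH2, the histone methyltransferase of polycomb (8.06 ± 0.03). EZH2 read 8.05, 8.08, 8.09 and 8.02, a range of 0.07. RUNX1, the core-binding transcription factor, read 5.19, 5.05, 4.92 and 4.83. Its arrays lay on both sides of the background level, and its mean of 5.00 was counted as near background. KIT, the stem cell factor receptor, read 2.79, 2.97, 3.16 and 2.85, and SETBP1, the SET-binding protein, read 2.54, 2.96, 2.50 and 2.50. Both were near background.

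Of 14 measured markers of other AML classes, 0 were high, against 10% of all genes, and 10 were near background (71.4%, against 60.4%). MECOM, the EVI1 gene of leukaemias with chromosome 3 rearrangements, read 2.12, 2.34, 1.91 and 2.06. POU4F1, a marker of core-binding factor leukaemia, was in the middle band at 5.74 ± 0.19, as was GATA1, the erythroid factor, at 5.20 ± 0.12. HGF, hepatocyte growth factor, known from promyelocytic leukaemia, read 2.04 ± 0.12.

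Of 32 haematopoietic transcription factors, 5 were high (15.6%, against 10% of all genes), 11 middle and 16 near background (50%, against 60.4%). IRF8, which directs progenitors to the monocyte and dendritic fate, read 9.78, 9.77, 9.87 and 9.63. IKZF1, the lymphoid and myeloid zinc finger factor Ikaros, read 8.32, 8.32, 8.19 and 8.13. FLI1, an ETS factor of early blood cells, read 7.54, 7.60, 7.46 and 7.37 and lay close to the high level, as did ZEB2. SPI1, the ETS factor PU.1 that myeloid cells need, was just below that level with 7.11, 7.16, 7.06 and 7.14. Its SD was 0.04, against a median SD of 0.133 over all genes above background. GFI1, a transcriptional repressor that neutrophils need, was in the middle band at 6.82 ± 0.21, and RUNX3 at 6.06 ± 0.30. Among the 16 near background were GATA2 (3.78 ± 0.19), TAL1 (3.09 ± 0.16), IRF4 (2.32 ± 0.10) and EOMES (2.43 ± 0.13), factors of stem, erythroid, B or T cells. Other factors of such lineages were not: GATA1 read 5.20 ± 0.12 and PAX5, the B cell factor, 6.83 ± 0.14, both in the middle band. Low levels were not limited to such lineages either. The factors EGR1 (4.65), IRF5 (4.70) and MAF (2.65) were near background, as was RUNX1, given above, by its mean.

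Of 28 measured granule genes, 6 were high (21.4%, against 10% of all genes), 4 middle and 18 near background (64.3%, against 60.4%). CTSG, the serine protease cathepsin G, read 11.31, 11.45, 10.91 and 11.49. PRTN3, proteinase 3, read 11.19, 11.59, 10.34 and 11.39. AZU1, azurocidin, read 9.95, 10.06, 9.33 and 10.04. All 3 belong to the primary granules, were high on every array and had their lowest value on array 3. SRGN, serglycin, the proteoglycan that packs the granule proteases, read 12.28, 12.36, 12.25 and 12.45. LYST, the regulator of lysosome traffic (10.21 ± 0.19), and CST7, the cysteine protease inhibitor cystatin F (9.21 ± 0.21), were high as well. Among the 18 near background were LTF, lactoferrin (1.87 ± 0.21), CAMP, the cathelicidin (4.26 ± 0.29), LCN2, lipocalin 2 (4.2 ± 0.16), and MMP8, the neutrophil collagenase (2.18 ± 0.22), all proteins of the later granules, and CEACAM8, a granulocyte surface antigen (1.51 ± 0.19). S100A8 (5.36 ± 0.41), a calcium-binding protein of mature myeloid cells, was just above background and its partner S100A9 (4.36 ± 0.33) below it. CPA3, the mast cell carboxypeptidase, read 1.76 ± 0.20.

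The promoters of CTSG and PRTN3 are printed because these 2 granule genes shared a low array 3, and that of FLT3 is printed as a steady high gene for contrast. Each run is the 250 bases before the RefSeq start of the gene (GRCh38.p14), 5′ to 3′ on the strand of the gene, with every CG dinucleotide in capitals. CTSG lies on the minus strand at chr14:24576251-24576500 and holds 3 CG. PRTN3 lies on the plus strand at chr19:840749-840998 and holds 6 CG. FLT3 lies on the minus strand at chr13:28100577-28100826 and holds 26 CG.
CTSG: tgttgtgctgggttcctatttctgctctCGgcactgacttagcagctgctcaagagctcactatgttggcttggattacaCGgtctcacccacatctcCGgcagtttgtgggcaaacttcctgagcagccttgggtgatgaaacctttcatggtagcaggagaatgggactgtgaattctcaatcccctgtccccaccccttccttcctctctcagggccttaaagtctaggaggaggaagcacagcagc
PRTN3: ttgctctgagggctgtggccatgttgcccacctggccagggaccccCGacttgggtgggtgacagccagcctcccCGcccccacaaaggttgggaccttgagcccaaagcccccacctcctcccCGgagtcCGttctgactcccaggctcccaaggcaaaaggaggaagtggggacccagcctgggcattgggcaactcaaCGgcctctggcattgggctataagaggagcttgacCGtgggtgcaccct
FLT3: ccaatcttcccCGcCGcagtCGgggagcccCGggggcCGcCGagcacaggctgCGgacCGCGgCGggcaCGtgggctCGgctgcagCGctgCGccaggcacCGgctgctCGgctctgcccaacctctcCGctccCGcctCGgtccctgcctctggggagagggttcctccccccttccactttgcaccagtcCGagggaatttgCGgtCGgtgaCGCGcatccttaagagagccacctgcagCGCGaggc

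The letters GAGGAA, the core bound by PU.1, were searched on both strands of these windows. In CTSG they occurred 2 times, starting 16 and 46 bases before the gene's start. In PRTN3 they occurred 88 bases before it and in FLT3 87 bases before it. Of all 9707 protein-coding genes with a promoter window (250 bases before to 50 after the start), 27.7% held these letters, so a match describes the window and does not mark a bound site. For the 6 granule genes above background with a window, 3 held GAGGAA and 4 held TTGCNNAA, the C/EBP letters, which 8.01% of all windows held. The median ratio of observed to expected CG in these 6 windows was 0.190, against 0.789 over all windows and 0.941 for 27 proliferation genes above background. The 8 windows of monocyte and macrophage markers above background were also low, with a median of 0.337. Of these 8, 4 held GAGGAA and 3 held the C/EBP letters, so these traits were not particular to granule genes.

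Over all windows, CG content differed with the level of the gene. The median observed to expected ratio was 0.884 in 1236 high genes and 0.857 in 3463 middle genes, and it was 0.656 in 5008 genes near background. The lower quartile was 0.775, 0.732 and 0.280, so the genes near background included many with few CG. The TATA box letters TATAAA were searched on the strand of the gene. The stretch searched began 40 bases before the start and ended upstream of it. TATAAA occurred there in 1.21% of high genes, 1.21% of middle genes and 5.51% of genes near background. GAGGAA showed no such order, with 29.9%, 26.8% and 27.9%. The median of the 6 granule windows, 0.190, lay below the lower quartile of the genes near background.

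**Figure D2:**
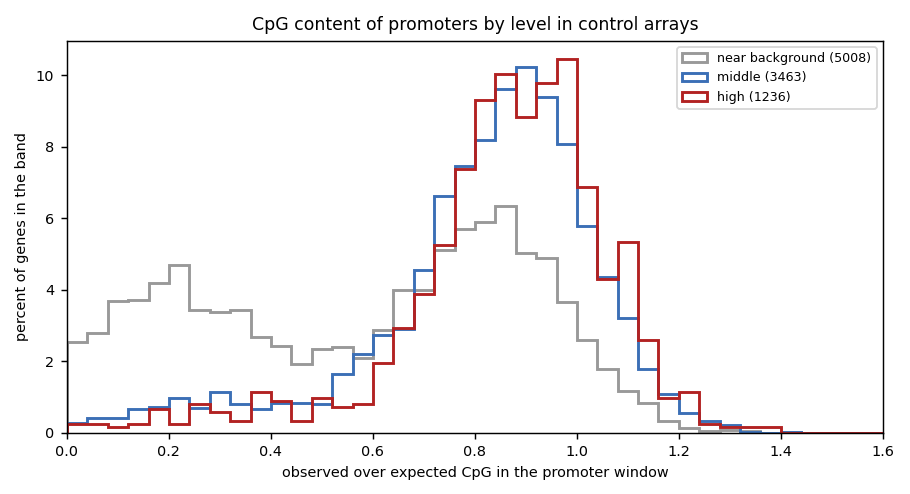
Observed over expected CpG ratio in the promoter window (x axis, no unit) as percent of the genes in each band (y axis), drawn as outlines for the high, middle and near background genes. The high and middle outlines lie around their medians of 0.884 and 0.857, and the outline of genes near background has a further mound of windows with few CpG.

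Of 31 measured monocyte and macrophage markers, 7 were high (22.6%, against 10% of all genes), 11 middle and 13 near background (41.9%, against 60.4%). CD68, the lysosomal glycoprotein of macrophages, read 9.03, 9.19, 9.18 and 9.03. LYZ, lysozyme, read 8.72, 8.99, 9.13 and 9.07 on its brighter probe set, while the other probe set lay at 5.84 and the mean of both, 7.41, was in the middle band. TYROBP, the signalling adaptor DAP12, read 8.79, 8.90, 8.88 and 8.41. CTSS (8.62 ± 0.12) and PSAP (8.58 ± 0.09), a lysosomal protease and the precursor of the saposins, and LST1 (7.94 ± 0.09), a leukocyte transcript, were high. CD14, the lipopolysaccharide co-receptor of monocytes, read 2.42, 2.18, 2.44 and 2.47, near background on all 4 arrays. VCAN, versican (1.90 ± 0.21), CD163, the haemoglobin scavenger receptor (2.31 ± 0.16), TLR4 (3.70 ± 0.11), CCR2, the receptor for CCL2 (4.73 ± 0.17), and TLR8 (1.6 ± 0.34) were also near background.

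A few monocyte genes stood out for their spread and not for their level. MNDA, a nuclear antigen of myeloid cells, read 5.33, 5.83, 4.33 and 6.39, lowest on array 3 and highest on array 4. MPEG1, perforin-2 of macrophages, read 6.40, 6.26, 7.62 and 5.42, with arrays 3 and 4 in the opposite order. FGL2, a secreted fibrinogen-like protein, read 5.76, 5.73, 6.85 and 5.69 and was highest on array 3. MPEG1 and FGL2 were thus both highest on array 3 and lowest on array 4, the reverse of MNDA. The FGL2 values below that of array 3 lay close together.

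Stem and progenitor markers were near background in 20 of 24 measured cases (83.3%, against 60.4% of all genes). CD34 read 2.80, 3.08, 2.76 and 2.97. ANGPT1 (1.78 ± 0.14), the TEK ligand, CRHBP (1.98 ± 0.07), a marker of stem cells, and PROM1 (2.63 ± 0.11), the antigen CD133, were near background. The 2 high members were CDK6, given above, and LAPTM4B, a lysosomal membrane protein, with 8.87, 8.98, 8.86 and 9.06. DNMT3B, a DNA methyltransferase (5.39 ± 0.17), and SOCS2, a target of STAT5 (5.94 ± 0.10), were in the middle band.

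Among 44 surface antigens used for diagnosis or therapy, 7 were high, 11 middle and 26 near background. Their shares, 15.9% high and 59.1% near background, stand against 10% and 60.4% of all genes. CD70, the ligand of CD27, read 8.74, 8.70, 9.02 and 8.46. CD99, an adhesion glycoprotein, read 8.64, 8.72, 8.82 and 8.42. CD47, the ligand of SIRPA that protects cells from phagocytosis, read 8.04, 7.96, 7.99 and 8.07 (SD 0.05). All 3 were high on every array. SPN (8.63 ± 0.15), the sialophorin CD43, and the tetraspanins CD37 (8.30 ± 0.27) and CD53 (8.12 ± 0.05) were high too. NCAM1, the adhesion molecule CD56 that some monocytic leukaemias carry, read 7.56, 7.57, 7.45 and 7.29 and lay at the boundary of the high band. CD38, an ectoenzyme that breaks down NAD, read 5.49, 5.44, 5.86 and 5.01, and its array 4 lay below the background level. The immune checkpoints divided: VSIR, or VISTA, was in the middle band with 5.79, 5.55, 6.13 and 4.86, whereas CD274, or PD-L1, read 1.72, 1.80, 1.76 and 2.10, and HAVCR2, or TIM-3, read 2.23 ± 0.20. CD36, the fatty acid and thrombospondin receptor, read 1.94, 2.30, 2.26 and 3.07, and CD96, a nectin receptor, 1.57 ± 0.09. IL1RAP, the co-receptor of interleukin 1, was in the middle band at 5.25 ± 0.19 and CD44, the hyaluronan receptor, at 5.09 ± 0.06.

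Of 12 measured adhesion receptors, 2 were high (CD99 and EMB, or embigin, 8.0 ± 0.05), 6 middle and 4 near background. The shares of 16.7% high and 33.3% near background stand against 10% and 60.4% of all genes. ICAM1, the ligand of the leukocyte integrins, read 7.22, 7.11, 7.26 and 6.62. CD226, a receptor of PVR, read 4.92, 5.98, 4.71 and 5.84, with arrays 1 and 3 below the background level and arrays 2 and 4 above it. VCAM1 (2.08 ± 0.22) and JAM3 (1.68 ± 0.16), adhesion molecules of endothelium, were near background.

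For antigen presentation, 3 of 15 measured genes were high (20%, against 10% of all genes), 4 middle and 8 near background (53.3%, against 60.4%). B2M, the light chain of HLA class I, read 8.37, 8.29, 8.53 and 8.29 on its brighter probe set and 5.17 on the other. TAPBP, the peptide-loading chaperone tapasin, read 7.80 ± 0.12. The stress ligands of NKG2D differed: MICA was at 6.69 ± 0.15, and ULBP1 read 6.11, 6.43, 6.55 and 4.70, with array 4 below the background level. The costimulatory ligand CD80 (1.85 ± 0.09) and CD1C (2.08 ± 0.08), a lipid-presenting molecule of dendritic cells, were near background.

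FLT3 was 1 of 3 high members among 26 receptor tyrosine kinases, of which 4 were middle and 19 near background. These shares, 11.5% high and 73.1% near background, stand against 10% and 60.4% of all genes. RET, the receptor of the GDNF family, read 8.51, 8.52, 8.38 and 8.52. INSR, the insulin receptor, read 7.70, 7.49, 7.85 and 7.60. EPHB4, an ephrin receptor, was in the middle band with 6.44, 6.48, 6.43 and 6.77, as were IGF1R (6.46 ± 0.06), AXL (5.17 ± 0.10), a receptor for GAS6, and FGFR3 (5.13 ± 0.19). KIT, given above, MET (2.11 ± 0.25), the HGF receptor, and KDR (2.21 ± 0.17), a VEGF receptor, were near background.

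Of 18 measured cytokine receptors, 3 were high (16.7%, against 10% of all genes), 7 middle and 8 near background (44.4%, against 60.4%). IL17RA, a receptor of interleukin 17, read 8.81, 8.96, 8.75 and 9.17. IL6R, the interleukin 6 receptor, read 8.51, 8.72, 8.34 and 8.92. Both had their highest value on array 4 and their lowest on array 3. NOTCH2, a developmental receptor kept on this list, was high at 7.95 ± 0.20. CSF3R, the granulocyte colony-stimulating factor receptor, was in the middle band at 6.32 ± 0.16. LIFR (1.89 ± 0.14) and OSMR (1.94 ± 0.26), receptors of the interleukin 6 family, were near background.

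G protein-coupled receptors were near background in 42 of 53 measured cases (79.2%, against 60.4% of all genes), with 2 high and 9 middle. CXCR4, the receptor of the marrow chemokine CXCL12, read 9.41, 9.33, 9.38 and 9.35 (SD 0.04). ADGRE5, the adhesion receptor CD97, read 7.75, 7.87, 7.90 and 7.86. CXCR4 and ADGRE5 were thus high on every array. Among the receptors for adenosine, the product of the CD39 and CD73 pathway, ADORA2B was in the middle band with 6.95, 6.87, 6.87 and 6.83. ADORA2A read 5.00, 4.98, 4.84 and 4.99, just under the background level on all 4 arrays, and ADORA1 read 3.96 ± 0.19. GPR183, an oxysterol receptor, read 6.60, 6.73, 6.52 and 7.57, highest on array 4. GPR65, an acid sensor, read 6.47, 6.46, 6.83 and 5.94 on its brighter probe set, while the other lay at 2.99. FPR2 (1.63 ± 0.29), a formyl peptide receptor of mature phagocytes, and PTGER3 (1.75 ± 0.17), a prostaglandin receptor, were near background.

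Among 24 pattern recognition genes, 3 were high (12.5%, against 10% of all genes), 6 middle and 15 near background (62.5%, against 60.4%). The high ones code for proteins that act inside the cell, but so do AIM2 (2.02) and NOD2 (4.02), which were near background. PYCARD, the inflammasome adaptor ASC, read 8.85, 9.16, 8.79 and 9.24. STING1, the adaptor of cytosolic DNA sensing, read 8.12, 8.13, 7.87 and 7.62, and its sensor CGAS read 7.59, 7.37, 7.54 and 7.56. RIGI, the RNA sensor, was in the middle band at 6.96 ± 0.22. LY96, the TLR4 partner MD-2, read 1.29 ± 0.14. Of 10 nuclear receptors, 3 were middle and 7 near background (70%, against 60.4% of all genes). AHR, the aryl hydrocarbon receptor, read 7.02, 6.80, 7.22 and 6.74, PPARD read 6.51 ± 0.20, and PPARG (1.67 ± 0.17) and PGR (1.97 ± 0.28), the progesterone receptor, were near background.

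**Figure D3:**
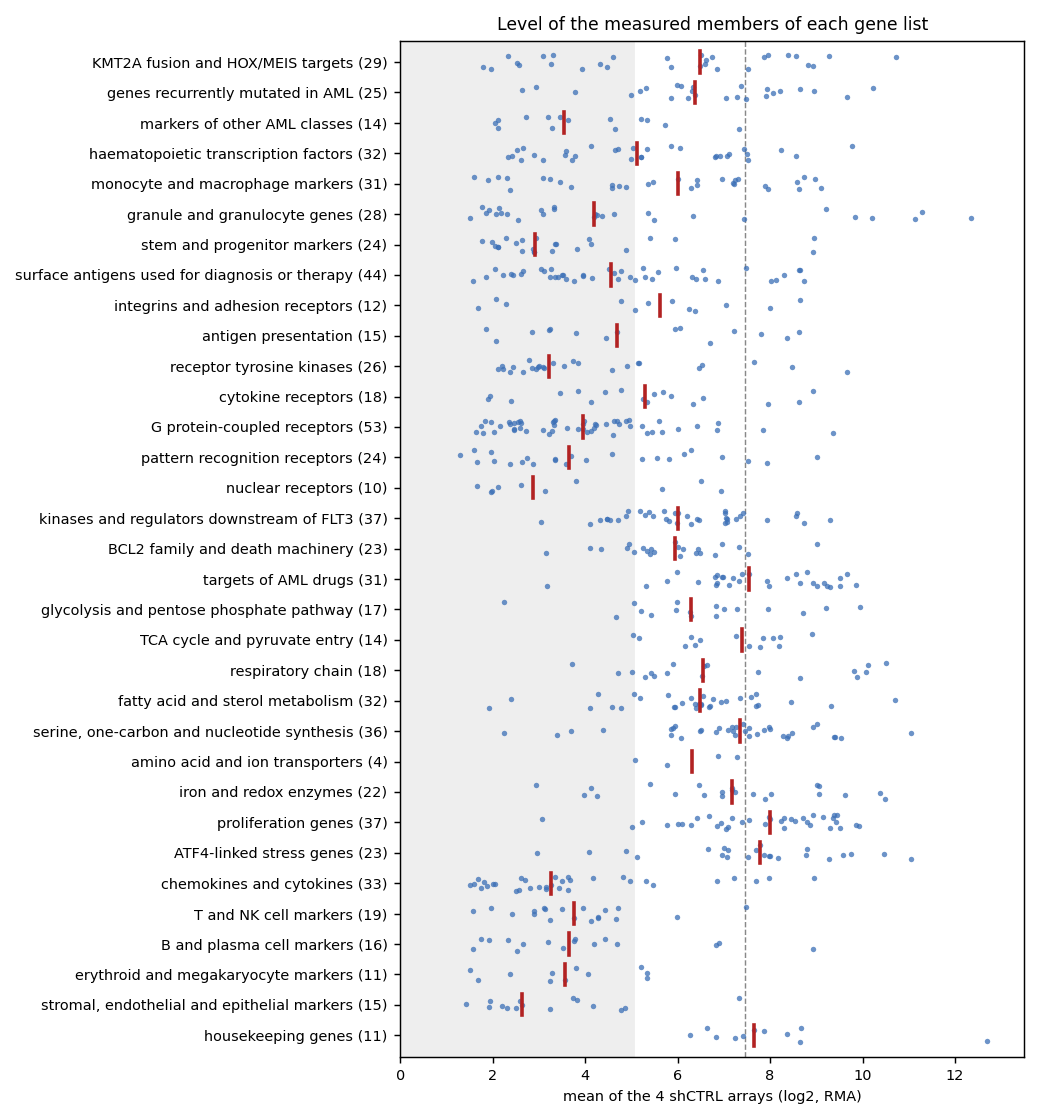
Mean level over the 4 shCTRL arrays (x axis, log2, RMA) of each measured member of the gene lists, with the number of measured members in brackets; points are genes, the red bar is the median of the list, the grey area lies below the background level and the dashed line marks the high level. Proliferation genes have a median of 7.99 and stromal, endothelial and epithelial markers a median of 2.62, levels of probe-set signal that are not compared as RNA amounts.

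Downstream of FLT3, most of the signalling genes lay in the middle band: 5 of 37 were high, 23 middle and 9 near background (24.3%). The shares of all genes were 10% high, 29.6% middle and 60.4% near background. LYN, the SRC-family kinase of myeloid cells, read 9.26, 9.29, 9.30 and 9.30, with an SD of 0.02. BTK, the TEC-family kinase, read 8.75, 8.83, 8.63 and 8.76. STAT3 (8.57 ± 0.04), JAK1 (8.57 ± 0.12) and GRB2 (7.93 ± 0.15), the adaptor of RAS signalling, were high. STAT5A, the transcription factor that FLT3 with a tandem duplication activates, read 5.88, 6.43, 5.45 and 6.24. PIM1, a kinase that STAT5 induces, read 7.36, 6.93, 7.80 and 6.06. STAT5A was lowest on array 3 and PIM1 was highest there, so they did not run in the same order. The phosphatase DUSP6 (7.06 ± 0.25) was in the middle band, and DUSP4 (3.05 ± 0.06) was near background.

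In the BCL2 family and death machinery, 2 of 23 measured genes were high (8.7%), 16 middle and 5 near background (21.7%). The shares of all genes were 10% and 60.4%. BCL2, the antiapoptotic protein that venetoclax binds, read 9.17, 9.07, 9.19 and 8.67. Array 4 was the lowest of them. MCL1, which also protects from apoptosis, was just below the high level with 7.24, 7.29, 7.31 and 7.46, and BCL2L1 (5.40 ± 0.11), or BCL-XL, was in the middle band. BCL2A1, a further antiapoptotic member, read 2.96, 3.39, 3.14 and 3.14. APAF1, the apoptosome scaffold, was high at 7.52 ± 0.27. The BH3 genes BCL2L11 (5.42 ± 0.28) and BIK (5.95 ± 0.41) were in the middle band, and BOK (4.09 ± 0.07) was near background.

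Genes coding for targets of AML drugs, or for enzymes that act on cytarabine, were above background in 30 of 31 measured cases. High were 16 (51.6%, against 10% of all genes). TOP2A, the topoisomerase hit by anthracyclines, read 9.74, 9.89, 9.62 and 10.18. DNMT1, the target of azacitidine and decitabine, read 9.53, 9.58, 9.50 and 9.47. CDK4, the G1 kinase, read 9.55, 9.56, 9.45 and 9.50. All 3 were high on every array. PLK1, the mitotic kinase, read 9.29 ± 0.20. For cytarabine, SAMHD1, which breaks down its active form, read 9.08, 8.99, 9.59 and 9.26. DCK, the kinase that activates cytarabine, was in the middle band at 6.98 ± 0.11. CDA, the deaminase that inactivates it, was the 1 member near background at 3.18 ± 0.18. DHODH, the pyrimidine enzyme, read 7.39, 7.44, 7.20 and 6.77. AURKA, a mitotic kinase, read 5.60, 5.90, 5.33 and 6.25.

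Among the metabolic lists, glycolysis and the pentose phosphate pathway had 4 high, 11 middle and 2 near background of 17 measured genes. Leaving out transporters, 7.14% (tricarboxylic acid cycle) to 18.8% (fatty acid and sterol genes) of members were near background, against 60.4% of all genes. The same lists held the largest and smallest high share, 50% and 21.9%, against 10% of all genes. GPI, the isomerase of glucose 6-phosphate, read 9.88, 9.99, 9.72 and 10.19. TKT, transketolase, read 9.15, 9.45, 9.06 and 9.21. LDHB (8.70 ± 0.09), a lactate dehydrogenase chain, and PGD (7.94 ± 0.08), of the oxidative pentose branch, were high. Of the hexokinases, HK2 was in the middle band at 6.84 ± 0.08, and HK1 (4.66 ± 0.05) and HK3 (2.24 ± 0.24) were near background.

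The tricarboxylic acid cycle had 7 high, 6 middle and 1 near background of 14 measured genes. IDH3G, a chain of NAD-dependent isocitrate dehydrogenase, read 9.16, 9.01, 8.83 and 8.63, and its partner IDH3A read 4.97, 5.05, 5.22 and 4.89, with a mean just under the background level. OGDH (8.21 ± 0.15), DLAT (8.20 ± 0.13), DLD (8.06 ± 0.06), CS (7.77 ± 0.14), or citrate synthase, and MPC1 (7.84 ± 0.17), the pyruvate carrier, were high. The respiratory chain had 7 high, 8 middle and 3 near background of 18. COX4I1 read 10.13, 10.16, 10.10 and 10.10 and COX5A read 9.92, 9.85, 9.87 and 9.85. Both code for chains of cytochrome oxidase and had an SD of 0.03. COX6A1 read 10.51 ± 0.18 on its brighter probe set and 2.10 on the other. UQCRB, of complex III, read 3.72 ± 0.15 although UQCRC2 of the same complex read 9.81 ± 0.19, an example of how levels of genes with a shared product differ on this scale.

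Fatty acid and sterol genes had 7 high, 19 middle and 6 near background of 32. SCD, which desaturates stearate, read 10.71, 10.84, 10.54 and 10.76 on its brighter probe set, with the other at 4.46. ACLY, the source of cytosolic acetyl-CoA, read 9.25, 9.45, 9.24 and 9.33. FASN, fatty acid synthase, read 7.56, 7.73, 7.60 and 8.05. CPT1A, which admits fatty acids to the mitochondrion, read 8.38, 8.43, 8.37 and 8.63. FASN and CPT1A were highest on array 4. INSIG1, the sterol sensor partner, read 7.17, 7.35, 7.0 and 7.90, lowest on array 3 and highest on array 4.

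Serine, one-carbon and nucleotide synthesis had 16 high, 16 middle and 4 near background of 36. PSAT1, the serine pathway aminotransferase, read 11.09, 11.29, 11.03 and 10.80. TYMS, thymidylate synthase, read 9.30, 9.38, 9.22 and 9.62. IMPDH2 (9.54 ± 0.10) and GMPS (9.01 ± 0.04) of guanine synthesis, ATIC (8.94 ± 0.06) of purine synthesis and ADK (9.41 ± 0.12), adenosine kinase, were high. The glycine cleavage genes GLDC (3.40 ± 0.15) and GCSH (2.25 ± 0.32) were near background. Among 22 iron and redox genes, 9 were high, 9 middle and 4 near background. TXN, thioredoxin, read 10.52, 10.44, 10.53 and 10.46. The peroxiredoxins PRDX3 (10.39 ± 0.14), PRDX1 (9.62 ± 0.23) and PRDX6 (9.05 ± 0.13), the lipid peroxidase GPX4 (9.06 ± 0.10) and the ferritinophagy receptor NCOA4 (9.01 ± 0.18) were high, and HMOX1, the inducible haem oxygenase, was near background at 3.98 ± 0.16. All 4 measured transporters were in the middle band, among them PIEZO1, a mechanosensitive channel (7.29 ± 0.10), and STIM1, the calcium sensor, with 5.20, 5.19, 5.21 and 4.72.

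Proliferation genes were high in 22 of 37 measured cases (59.5%, against 10% of all genes), middle in 13 and near background in 2. MKI67, the antigen of cycling cells, read 9.88, 9.96, 9.80 and 10.02. MCM3, of the replicative helicase, read 9.42, 9.49, 9.29 and 9.61. KIF11, the spindle motor, read 8.97, 9.16, 8.86 and 9.61. Each of these was lowest on array 3 and highest on array 4. RB1, the G1 gatekeeper, had a smaller spread with 9.44, 9.39, 9.45 and 9.38. Of the D-type cyclins, CCND2 was high at 8.30 ± 0.04 on its brighter probe set, while the other lay at 4.84. CCND1 was near background at 5.00 ± 0.10. CDKN2A, the inhibitor of CDK4 and CDK6, read 3.05, 3.07, 3.16 and 3.02.

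Chemokine and cytokine genes were near background in 26 of 33 measured cases (78.8%, against 60.4% of all genes). MIF, macrophage migration inhibitory factor, read 8.90, 9.02, 8.76 and 9.14. CCL5, a chemokine, read 8.15, 8.19, 8.30 and 7.29, and VEGFA, the endothelial growth factor, read 8.15, 7.79, 8.25 and 6.56. CCL5 and VEGFA were high on arrays 1 to 3 and middle on array 4. TNF was in the middle band at 7.21 ± 0.33. CXCL8, or interleukin 8, read 1.62, 1.62, 1.47 and 1.67, and CCL8 read 1.51 ± 0.30.

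Of markers of other cell types, the number near background was 17 of 19 for T and NK cells (89.5%), 13 of 16 for B and plasma cells (81.3%), 8 of 11 for the erythroid and megakaryocyte lineage (72.7%) and 14 of 15 for stroma, endothelium and epithelium (93.3%), against 60.4% of all genes. The T and NK exceptions were NCAM1, given above, and NKG7, a granule protein of cytotoxic cells, with 5.98, 6.14, 5.67 and 6.14. CD28 (1.96 ± 0.14) and GZMK (1.57 ± 0.24), T cell genes, were near background. The B cell exceptions were XBP1, a factor of the secretory pathway also made in other cells (8.92 ± 0.19), BANK1, a B cell adaptor (6.90 ± 0.11), and PAX5, the B cell factor, with 6.74, 7.0, 6.68 and 6.90. CR2 (1.75 ± 0.09) and RAG2 (1.58 ± 0.07), of mature and precursor B cells, were near background. EPOR (5.35 ± 0.09), PF4 (5.33 ± 0.12) and GATA1 were just above background, and the haemoglobin chaperone AHSP (2.37 ± 0.15) and PPBP (1.5 ± 0.44), a platelet chemokine, were near background. KRT18, a keratin, was the epithelial exception with 7.21, 7.27, 7.34 and 7.45, while DCN (1.42 ± 0.08) and LUM (1.91 ± 0.19), of fibroblasts, were near background.

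The lists hold well-studied protein-coding genes, which lie higher than the other named genes. Of all protein-coding genes 12.1% were high and 53.6% near background, against 1.29% and 90.1% of long non-coding RNA genes. Across the 34 lists, 756 different genes were measured, of which 157 were high, 242 middle and 357 near background. These totals include a list of 53 measured tissue-restricted genes, used for an alternative background, of which 51 were near background. The shares of single lists are descriptions and were not tested.

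The 10 genes with the brightest probe sets, which the naming rule takes by signal and not by RNA amount, were EEF2 (12.68), the elongation factor, RPS28 (12.62), RPL12 (12.51), RPS27 (12.34), SRGN, RPL41 (12.32), RPS15 (12.13), RMRP (12.07), the RNA of RNase MRP, OAZ1 (11.95), the antizyme of polyamine control, and CALR (11.69), a chaperone of the endoplasmic reticulum. Their SDs ran from 0.02 for RPL41 to 0.23 for CALR. Ribosomal protein genes have many near-identical processed copies, so their values are uncertain, and RPL41 had 5 probe sets, the lowest at 6.0.

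The 4 arrays were alike over the whole table. Correlations between arrays over all probe sets ran from 0.985 to 0.987, array medians ran from 3.13 to 3.16, and 0 pairs were identical. These correlations are across probe sets, which are not independent replicates. The median SD was 0.170 for genes near background, 0.137 for middle genes and 0.120 for high genes. Above background, 365 of 5893 genes (6.19%) had an SD over 0.3, 45 (0.764%) had an SD over 0.5, and 85 (1.44%) had a range over 1 between their lowest and highest array. The last count was 17 without array 4 and 45 without array 3.

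**Figure D4:**
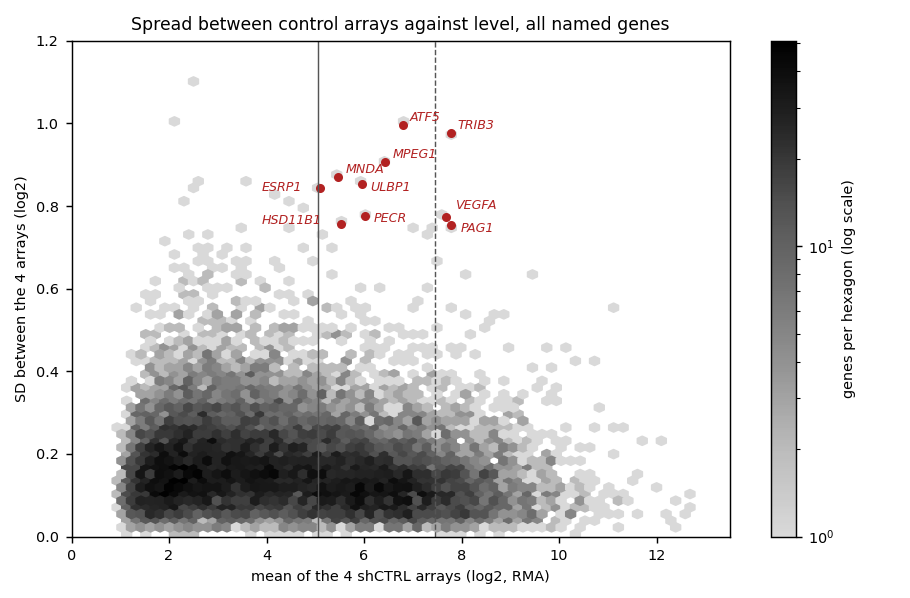
SD between the 4 shCTRL arrays (y axis, log2) against mean level (x axis, log2, RMA) for 14884 genes, as hexagons shaded by the number of genes; the solid line marks the background level and the dashed line the high level. The 10 genes above background with the largest SD are red and lie between 0.755 for PAG1 and 0.997 for ATF5, far above the median of 0.133.

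The 10 named genes above background with the largest SD were ATF5, TRIB3, MPEG1, MNDA, ULBP1, ESRP1, PECR, VEGFA, HSD11B1 and PAG1. ATF5, a stress transcription factor, read 7.47, 6.75, 7.56 and 5.40. TRIB3, a pseudokinase that the factor ATF4 induces, read 8.35, 8.0, 8.42 and 6.34. PAG1, a membrane adaptor of SRC kinases, read 8.26, 7.68, 8.45 and 6.77. In these genes array 3 was highest and array 4 lowest. ESRP1, a splicing regulator of epithelium, read 5.37, 5.08, 5.97 and 3.95, and PECR, a peroxisomal reductase, read 6.39, 5.79, 6.85 and 5.06, in the same order. HSD11B1, which regenerates cortisol, read 5.53, 5.97, 4.45 and 6.13, and MNDA ran the same way, with array 3 lowest and array 4 highest. Of the 85 genes with a range over 1, 38 (44.7%) were lowest on array 4 and highest on array 3, 16 (18.8%) were the reverse, and 13 were lowest on array 4 and highest on array 1.

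In some lists most members had the same array lowest. The share of all genes above background that were lowest or highest on each array was not counted. The counts of members below therefore only describe the lists. The ATF4-linked stress genes, which cells raise when amino acids run short or proteins misfold, were 14 high, 6 middle and 3 near background of 23. Their high share was 60.9%, against 10% of all genes. All 20 members above background were lowest on array 4. Their mean deviation from the mean of the 4 arrays was 0.22, 0.17, 0.14 and -0.54 on arrays 1 to 4. DDIT4, the inhibitor of mTORC1 signalling, read 9.98, 9.97, 9.92 and 9.13. ASNS, asparagine synthetase, read 8.16, 8.24, 8.09 and 7.45. CTH, cystathionine lyase, read 7.34, 7.50, 7.29 and 6.23. In each of these, arrays 1 to 3 lay close to each other and array 4 stood below. The tRNA synthetase genes AARS1 (10.53, 10.54, 10.58 and 10.24), GARS1 (9.81, 9.66, 9.51 and 9.37) and MARS1 (9.53, 9.35, 9.29 and 8.96) were lowest on array 4 by smaller amounts. ATF4 itself read 8.83, 8.84, 8.75 and 8.65, with an SD of 0.09. Without array 4 the median SD of the list's members above background was 0.113, against 0.334 with it.

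Proliferation genes ran in another order. Of 35 members above background, 29 were lowest on array 3 and 21 highest on array 4, with mean deviations of -0.04, 0.08, -0.19 and 0.15. Granule genes shared the low array 3: their mean deviations were 0.01, 0.15, -0.32 and 0.16, and 7 of 10 members above background were lowest there. Without MPO, the granule gene with the largest deviation, they were 0.06, 0.11, -0.26 and 0.09. Under quantile normalization of the 4 arrays, the small deviation of the granule genes on array 1 turned to -0.004, and the signs on arrays 2 to 4 held for these 3 lists. Fatty acid and sterol genes (-0.06, 0.08, -0.15 and 0.13) and the respiratory chain (-0.02, 0.05, -0.13 and 0.11) had the same low array 3 and high array 4. Housekeeping genes, by contrast, had mean deviations of 0.01, 0.02, -0.02 and -0.01, of which those on arrays 1 and 4 changed sign under quantile normalization.

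Chemokines and cytokines (0.09, 0.18, 0.11 and -0.39), antigen presentation (0.05, 0.05, 0.12 and -0.23) and surface antigens (0.04, 0.06, 0.08 and -0.17) had their lowest mean on array 4. Each list was also taken without its member of largest deviation. On array 4 antigen presentation then read -0.05 over 6 genes without ULBP1, so its low mean rested on that gene, while chemokines and cytokines read -0.26 without VEGFA, surface antigens -0.14 without VSIR and the stress genes -0.49 without TRIB3. The lists overlap: PSAT1, PHGDH, ASNS and CTH are on both the stress and the serine list, and VEGFA is on both the stress and the chemokine list. KMT2A network genes had mean deviations of 0.11, -0.03, 0.02 and -0.09, with 11 of 17 members above background highest on array 1 and 9 lowest on array 4. Without the same share over all genes, these counts are not read as a trait of the list. Above background, the root mean square deviation of all genes was 0.133, 0.129, 0.151 and 0.195 on arrays 1 to 4, so array 4 was the farthest from the mean. What the array differences came from was not tested.

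**Figure D5:**
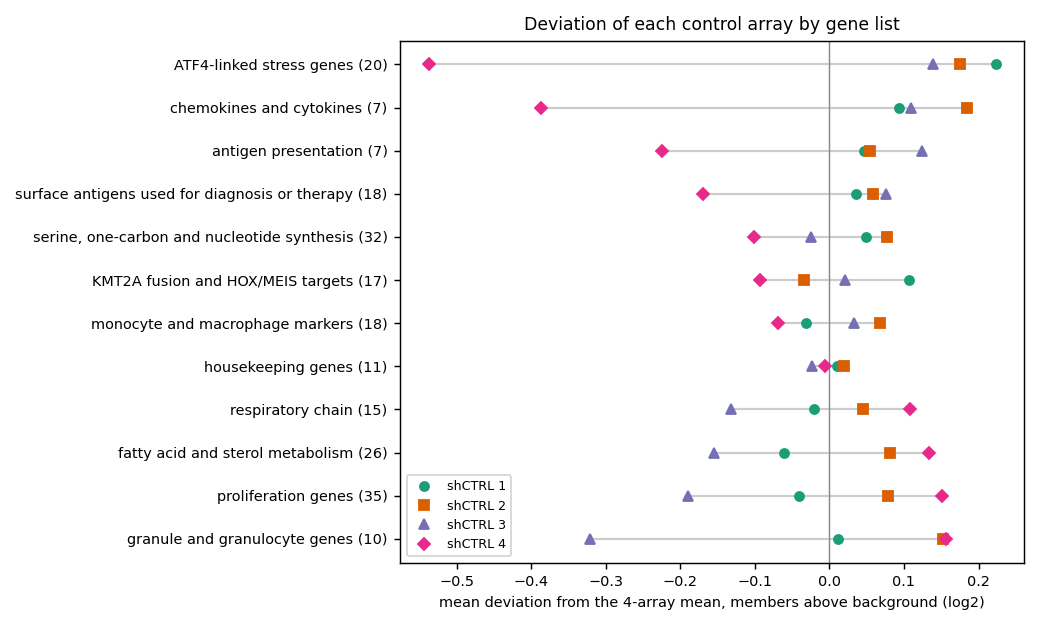
Mean deviation of each shCTRL array from the mean of the 4 arrays (x axis, log2) over the members of 12 gene lists that lie above background, with their number in brackets; 1 symbol per array, joined by a grey line per list. Array 4 lies at -0.54 for the ATF4-linked stress genes, array 3 at -0.32 for the granule genes, and all 4 arrays lie near 0 for the housekeeping genes.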

How the data were processed

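The values the authors deposited are log2 levels, which were made with RMA in oligo, per the submitters' processing notes. Their versions, the model of the array and its genome build are not named in the sources used. Per the labels' protocols, total RNA was labelled as biotinylated cRNA for Affymetrix arrays. RMA sets all arrays to a shared distribution, which removes differences in total RNA. Symbols came from the platform annotation, with 16098 probe sets matched by Entrez ID to RefSeq, 0 with several symbols and 0 symbols updated, and 0 columns belonged to other series.

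The brightest probe set of a gene, by its mean over the 4 shCTRL arrays, stood for that gene. The members and gene lists were chosen with earlier results of these data known. Named genes were the 5 label markers, ENTPD1, up to 6 high, 2 lowest and 2 most variable members per list, and the 10 brightest and 10 most variable genes above background, leaving out names of pseudogenes, small RNAs, antisense and intergenic transcripts and open reading frames. All other genes were named for their function after their values were seen. No test between groups was run, and the gap test given below only flags an array that stands apart. SDs and counts are descriptions, and the number of arrays limits the precision. Alternatives changed the background and high levels, the probe set choice, the scaling and the arrays used. Computation used Python 3.11.15, numpy 2.4.6, pandas 2.3.3 and matplotlib 3.10.9, tested on simulated data.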

Additional observations from a re-analysis of the deposited data

Results flagged for a closer look

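A gap test over 4 arrays, in which the distance of the outermost array to the nearest other is divided by the whole range and set against Dixon's 95% critical value, picks about 5% of such groups by chance. It picked 13 of 238 named genes (5.46%) and the mean deviations of 3 of 31 lists.

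Array 4 stood below the others for the tRNA synthetase AARS1 (gap over range 0.856), the chemokine CCL5 (0.850), cystathionine lyase CTH (0.835), the mTORC1 inhibitor DDIT4 (0.926), the recombinase gene RAG2 (0.891) and the calcium sensor STIM1 (0.965). It stood above them for the ephrin receptor EPHB4 (0.852) and glutamate dehydrogenase GLUD1 (0.908). Array 3 stood below for azurocidin AZU1 (0.850), CEACAM8 (0.906) and RET (0.897). Array 1 stood below for GATA1 (0.859) and array 2 above for SETBP1 (0.922). CEACAM8, RAG2 and SETBP1 lay near background, where these gaps are under 0.5 on the log2 scale.

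For whole lists, array 4 stood below for the ATF4-linked stress genes (0.890), chemokines and cytokines (0.840) and surface antigens (0.838). Over all genes, 821 (5.52%) had an array apart, of which array 4 accounted for 293, array 1 for 181, array 3 for 174 and array 2 for 173. Above background array 4 accounted for 163 of 312, with 99 below the others and 64 above.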

How the results depend on the processing

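No paired analysis was possible because no groups were compared. The high band held 2977 genes when it opened at the 80th percentile and 745 at the 95th, by construction. Genes near background numbered 6964, 11239 and 8186 with the background at the 90th or 99th percentile of the reference genes or from 53 tissue-restricted genes, where the background level was 4.06, 6.15 and 4.65. Genes above background with a range over 1 numbered 17 to 76 when each array was left out in turn, against 85, with 17 without array 4 and 45 without array 3. That alternative, the lists' median SD without each array and their deviations under other scalings or without 1 member were chosen after seeing the data. The lists' median SD moved in 7 of 124 such cases, 6 of them without array 4. Averaging all probe sets of a gene moved the level of 13 named genes by more than their SD, among them SCD (7.58), MBNL1 (7.79), COX6A1 (6.31) and B2M (6.77). Over all alternatives the level of a named gene moved in 13 of 1666 cases, its SD in 183 of 1666, and the number of high or near-background members of a list in 39 and 37 of 462. No array changed its median deviation by more than 0.04 under another scaling. Requiring every array to lie in the band left 9 of 14 stress genes and 3 of 5 haematopoietic transcription factors high.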

Other observations

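Of 37519 unnamed probe sets, 7233 (19.3%) lay above the background level and 2355 (6.28%) in the high band, and the brightest read 13.57. Their median SD was 0.186, against 0.155 over all named genes. Genes not measured here, such as CD33 and most of the HOXA cluster, may have probe sets among them.

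The choice of a single probe set mattered for some genes. Of 779 genes with more than 1 probe set, the median difference between the brightest and the dimmest was 0.97, and in 252 they fell in different bands. Of the list members, 37 had several probe sets and 18 of these had bands that differed. The reference genes that set the background level had a median of 2.33 and ran from 0.99 to 7.17, with 5 of 85 above that level by its construction. Close to the boundaries, 436 genes lay within 0.1 of the background level and 229 within 0.1 of the high level, and the arrays of 846 and 369 genes lay on both sides of the background and the high level.

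Transcribed pseudogenes were high in 17 of 447 cases (3.8%) and near background in 80.3%.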
